A study of Mus musculus with 6 samples.

Results

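Messenger RNA of the cardiac transcription factor genes Gata4, Gata6, Nkx2-5, Tbx5, Tbx20, Mef2a, Mef2c, Mef2d, Hand2 and Irx4 was followed in whole mouse hearts. Members were taken by gene symbol, with every probe that carries 1 of these names. Of the 10 genes, 9 had a probe and all 9 entered the tests, of 19057 genes with a probe and 11167 tested. These 9 genes held 18 probes. Mef2c had 5, Tbx20 had 4, Gata6 and Tbx5 had 2 each, and Gata4, Nkx2-5, Mef2d, Hand2 and Irx4 had 1 each. Mef2a is not analysed here.

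The study crossed a heart-specific JMJD2A transgene with pressure overload. JMJD2A, encoded by Kdm4a, is a histone lysine demethylase, and TAC, thoracic aortic constriction, is a band that loads the left ventricle. All 6 bead arrays held total heart RNA of FvB mice labelled 8 weeks old, taken 3 weeks after surgery; the design text gives the age in years. The groups were transgenic TAC (2 arrays), transgenic sham (1 array), wild-type TAC (2 arrays) and wild-type sham (1 array). The sources used here do not give the promoter that drives the transgene, and the labels do not say whether an array holds 1 heart or a pool. P-values therefore measure the spread between these samples, which may be technical.

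The 10 genes belong to the families that build and maintain heart muscle. GATA4 and GATA6 are zinc finger factors, NKX2-5 and IRX4 are homeodomain factors, TBX5 and TBX20 are T-box factors, HAND2 is a basic helix-loop-helix factor and the MEF2 proteins are MADS-box factors. They bind one another and share enhancers of contractile, conduction and natriuretic peptide genes. In the loaded adult heart GATA4 and the MEF2 proteins are known as signal-dependent drivers of the fetal gene program, largely through phosphorylation and cofactors and not only through their own mRNA.

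The 250 bases before the start site of 4 members are shown because these genes had the smallest unadjusted p-values in the TAC comparisons, Hand2, Irx4 and Mef2d in transgenic hearts and Tbx20 over both genotypes. Sequences are from RefSeq (GRCm38.p6), 5′ to 3′ on the gene's strand. They are Hand2 at chr8:57320733-57320982 (+), Irx4 at chr13:73260247-73260496 (+), Mef2d at chr3:88142122-88142371 (+) and Tbx20 at chr9:24774304-24774553 (-). Capitals mark matches, on either strand, of GATAA (GATA factors), CACTT (NKX2-5), AGGTGT (T-box) and the MEF2 consensus; CANNTG (E-box, bound by helix-loop-helix factors) was counted but is not capitalised.
Hand2: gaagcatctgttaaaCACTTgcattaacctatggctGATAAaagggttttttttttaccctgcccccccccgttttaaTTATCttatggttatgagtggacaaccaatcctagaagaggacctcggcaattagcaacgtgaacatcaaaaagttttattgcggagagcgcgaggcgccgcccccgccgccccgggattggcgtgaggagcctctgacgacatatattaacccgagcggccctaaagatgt
Irx4: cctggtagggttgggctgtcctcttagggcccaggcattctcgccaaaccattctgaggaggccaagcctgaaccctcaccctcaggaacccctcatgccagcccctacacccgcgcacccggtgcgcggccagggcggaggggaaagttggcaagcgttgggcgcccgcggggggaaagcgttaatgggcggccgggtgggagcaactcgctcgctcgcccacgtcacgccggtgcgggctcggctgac
Mef2d: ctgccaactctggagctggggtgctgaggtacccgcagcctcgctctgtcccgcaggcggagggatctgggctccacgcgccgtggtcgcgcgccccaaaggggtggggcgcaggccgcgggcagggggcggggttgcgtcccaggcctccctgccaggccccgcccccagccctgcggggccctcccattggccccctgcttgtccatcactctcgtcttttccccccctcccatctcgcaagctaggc
Tbx20: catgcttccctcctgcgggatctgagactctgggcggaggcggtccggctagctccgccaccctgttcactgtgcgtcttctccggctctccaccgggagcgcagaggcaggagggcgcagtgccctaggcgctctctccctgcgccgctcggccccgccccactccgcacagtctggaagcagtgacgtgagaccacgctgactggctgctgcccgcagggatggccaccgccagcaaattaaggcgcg
The Hand2 window held GATAA starting 214 bases before the start site and its reverse complement 172 bases before it. It also held CACTT 235 bases before the start site, a match that overlaps 1 of the 2 E-boxes of this window. The Irx4, Mef2d and Tbx20 windows held none of the 5 motifs, which says only that these letters are not in these windows. Over the 9 windows of the 7 members with an entry, GATAA was in 2 windows (Hand2 and 1 of 3 Mef2c windows), CACTT in 4, AGGTGT in 1, CANNTG in 4 and the MEF2 consensus in 0. Of all 32851 windows of this length, 22.6% held GATAA, 40.7% CACTT, 11.8% AGGTGT, 66.2% CANNTG and 2.92% the MEF2 consensus.

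Intensities are printed on the linear scale as deposited, and differences as log2 values, transgenic minus wild type or TAC minus sham, with the standard error (SE) of the fit. Array medians lay between 56.3 and 56.4, so Tbx5 and Mef2d were close to the dim end and 4 of the 18 member probes lay below the intensity filter of 58.7. The cardiomyocyte marker Myh6, the fast cardiac myosin heavy chain, lay between 15229 and 20602 on all 6 arrays. Xist, the RNA that coats the inactive X in female cells, was at 1316 and 2097 in transgenic TAC, 42.6 in transgenic sham, 1452 and 41.7 in wild-type TAC and 1450.5 in wild-type sham. The labels give no sex, so a sex difference and the TAC contrast within transgenic arrays cannot be told apart. The same transgenic sham array also enters the comparison of the sham hearts and the difference of the TAC responses. Probes for Kdm4a do not check the genotype labels, since the sources used here do not place them relative to the transgene.

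Transgenic against wild-type hearts over both surgeries asks whether JMJD2A overexpression moved these genes. None of the 9 passed limma's test (adjusted p from 0.518 to 0.995), while 106 of all 11167 genes, or 0.949%, passed. An unadjusted p under 0.05 was reached by 0 members and by 11.5% of all genes. The differences ran from -0.15 for Mef2d to 0.27 for Mef2c, with 5 higher and 4 lower and a median of 0.05, against -0.01 for all genes. The 95% intervals together spanned -0.47 to 0.60, and each of the 9 included 0.

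Gata4, the zinc finger factor needed for cardiomyocyte growth, was at 143 and 141 in transgenic TAC, 179 in transgenic sham, 119.9 and 134 in wild-type TAC and 137 in wild-type sham. All 3 transgenic arrays were above all 3 wild-type arrays, with transgenic TAC 2 (141) just above wild-type sham (137). Its difference was 0.23 ± 0.13 (adjusted p = 0.572), and it was the 1 of 9 members whose genotypes did not overlap, whereas 16.1% of all genes did not.

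Gata6, the partner of Gata4 with overlapping roles in heart muscle, was at 1878 and 1811 in transgenic TAC, 2425 in transgenic sham, 2115 and 2161 in wild-type TAC and 2233 in wild-type sham. The transgenic TAC arrays were the lowest and the transgenic sham array the highest. The difference between genotypes was -0.10 ± 0.12 (adjusted p = 0.814). Its second probe was at 148 and 174 in transgenic TAC, 151 in transgenic sham, 209 and 186 in wild-type TAC and 206 in wild-type sham. That probe was lower on every transgenic array (-0.34 ± 0.15, unadjusted p = 0.0358), yet did not pass over all 34885 probes (adjusted p = 0.621). The tested probe and the second one thus gave different patterns, most of all on the transgenic sham array.

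Nkx2-5, the homeobox gene of early heart specification, was at 497 and 406 in transgenic TAC, 563 in transgenic sham, 566 and 467 in wild-type TAC and 436 in wild-type sham. The genotypes overlapped throughout, with a difference of -0.01 ± 0.18 (adjusted p = 0.995). Irx4, a ventricle-restricted homeobox gene, was at 313 and 298 in transgenic TAC, 495 in transgenic sham, 309 and 331 in wild-type TAC and 305 in wild-type sham. Only the transgenic sham array stood apart. The Irx4 difference of 0.19 ± 0.18 (adjusted p = 0.754) became -0.07 when either sham array was left out. With 1 sham array left out, the model of both factors gives the genotype difference after TAC alone. Such values therefore repeat that comparison and are not a separate check.

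Tbx5, the T-box activator of atrial, septal and conduction genes, was at 77.5 and 52.0 in transgenic TAC, 69.9 in transgenic sham, 75.6 and 59.5 in wild-type TAC and 68.3 in wild-type sham. The replicates within a group were farther apart than the groups (-0.04 ± 0.15, adjusted p = 0.958). Tbx20, a T-box factor that adult cardiomyocytes need for contractile function, was at 399 and 484 in transgenic TAC, 333 in transgenic sham, 489 and 371 in wild-type TAC and 319 in wild-type sham. Its arrays divided by surgery, not by genotype (genotype difference 0.05 ± 0.16, adjusted p = 0.950). A second Tbx20 probe was at 160.5 and 159 in transgenic TAC, 126 in transgenic sham, 116 and 123 in wild-type TAC and 126 in wild-type sham. It was higher in transgenic arrays by 0.28 ± 0.14 (adjusted p = 0.712 over all probes).

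Mef2c, the MADS-box factor of heart field and muscle gene expression, was at 1936 and 2441 in transgenic TAC, 2236 in transgenic sham, 2019 and 1789.6 in wild-type TAC and 1675 in wild-type sham. Of all members it had the smallest p between genotypes, with a difference of 0.27 ± 0.14 (adjusted p = 0.518), although 1 transgenic TAC array lay below 1 wild-type TAC array. Its 5 probes did not follow 1 pattern: 3 gave higher values in transgenic arrays (0.27, 0.27 and 0.35) and 2 lower values (-0.11 and -0.03). The probe with -0.03 lay below the intensity filter, at 37.8 to 46.7. Mef2d, a MEF2 factor linked to the stress response of the adult heart, was at 63.1 and 66.6 in transgenic TAC, 48.4 in transgenic sham, 66.5 and 57.1 in wild-type TAC and 73.8 in wild-type sham. The sham arrays were its lowest and its highest value, so that its difference of -0.15 ± 0.14 (adjusted p = 0.742) became 0.07 without either of them.

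Hand2, the helix-loop-helix gene of right ventricle formation, was at 95.1 and 88.5 in transgenic TAC, 159.7 in transgenic sham, 108 and 81.9 in wild-type TAC and 109 in wild-type sham. Here too the transgenic sham array stood alone above the other 5. Its difference of 0.16 ± 0.16 (adjusted p = 0.774) became -0.03, its difference after TAC alone, when either sham array was left out.

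**Figure D1:**
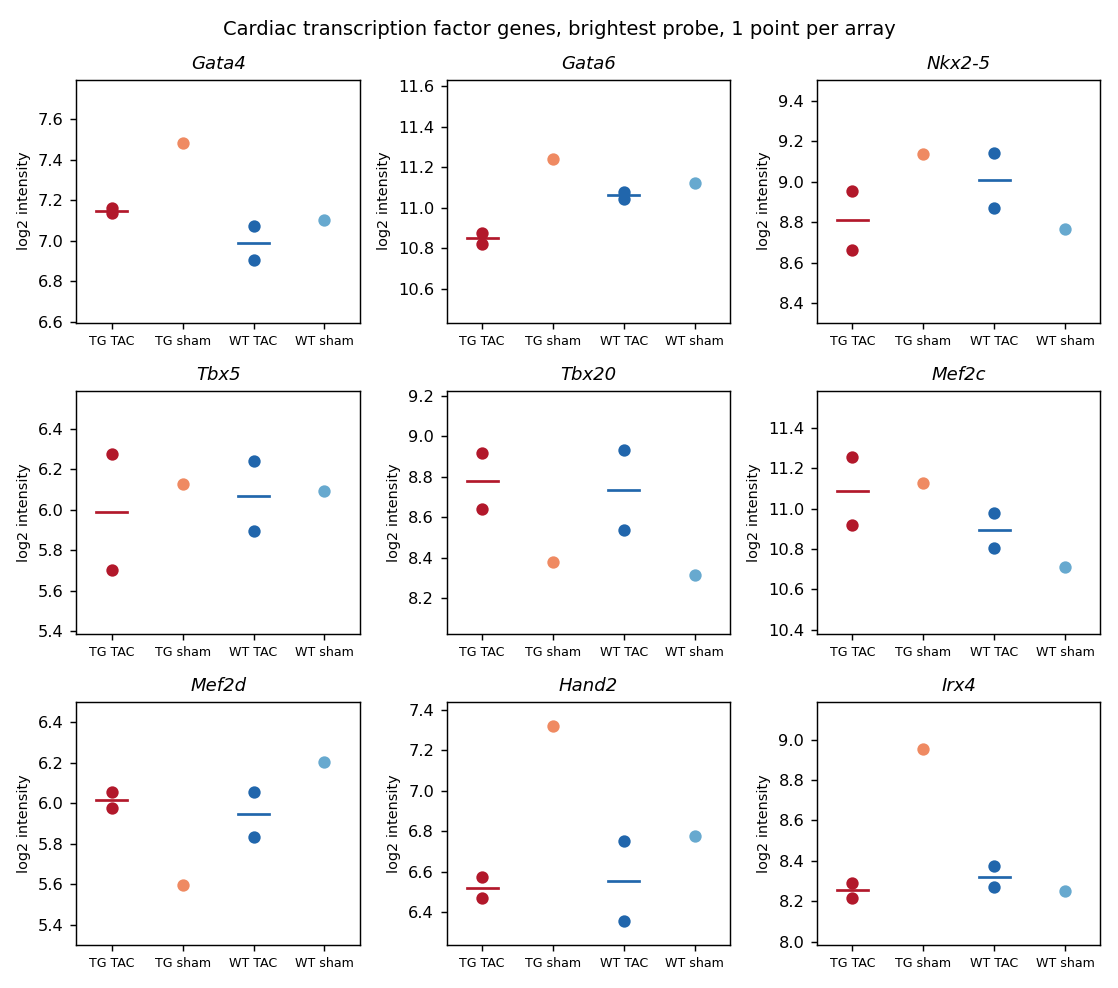
Log2 intensity (vertical axis, the same span of 1.2 in each panel) of the brightest probe of each of 9 genes, 1 point per array, with a bar at the mean where a group holds 2 arrays; TG is transgenic and WT wild type. The transgenic sham array is the highest point for Gata4, Gata6, Hand2 and Irx4 and the lowest for Mef2d, and for Tbx20 all 4 TAC arrays lie above both sham arrays.

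After TAC alone, 2 transgenic arrays stood against 2 wild-type arrays. None of the 9 genes passed limma's test (adjusted p = 0.999 for each), and 23 of all genes, or 0.206%, did. By the tested probes 0 members had an unadjusted p under 0.05, against 5.76% of all genes. By the tested probes Gata6 was lower by the largest amount, at -0.21 ± 0.16, and Mef2c higher by the largest, at 0.19 ± 0.18. The 2 transgenic TAC arrays of Gata6 lay below both wild-type TAC arrays, while those of Mef2c overlapped them. Some other probes above the filter gave larger differences. The second Tbx20 probe gave 0.42 ± 0.17 (limma's unadjusted p = 0.0344) without overlap, but did not pass over all probes. The tested Tbx20 probe gave 0.04. The second Gata6 probe gave -0.30 ± 0.20, and 1 Mef2c probe gave 0.47 ± 0.27 while another gave 0.001.

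**Figure D2:**
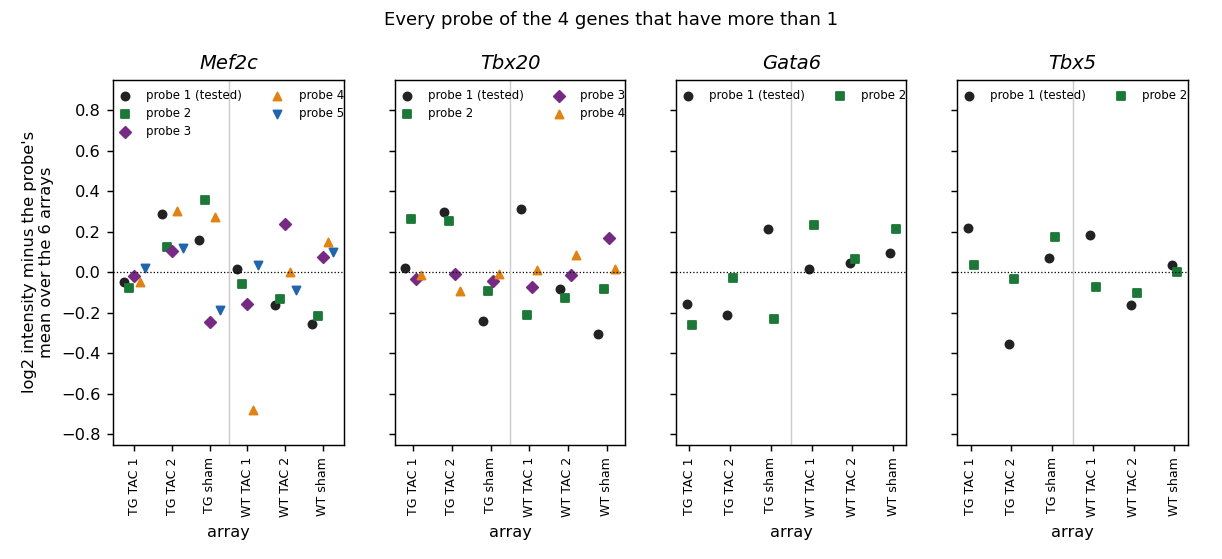
Log2 intensity of each probe minus its own mean over the 6 arrays (vertical axis) by array (horizontal axis, transgenic left of the grey line) for the 4 genes with more than 1 probe; probe 1 is the brightest and was tested. The 2 Gata6 probes part on the transgenic sham array, and the tested Tbx20 probe is low on both sham arrays while the second probe is high on the transgenic TAC arrays alone.

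TAC against sham over both genotypes asks what pressure overload did to the factors. None of the 9 passed (limma, adjusted p from 0.420 to 0.964), and 2 had an unadjusted p under 0.05. Of all genes 1 passed, Acta1, or 0.00895%, and 1034, or 9.26%, had an unadjusted p under 0.05. The median of the members was -0.08, with 3 higher and 6 lower, against -0.01 for all genes.

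Hand2 had the smallest p of the members. Its 4 TAC arrays, at 81.9 to 108, lay below both sham arrays, at 159.7 and 109, for a difference of -0.51 ± 0.17 (unadjusted p = 0.0156, adjusted p = 0.420). The gap between wild-type TAC 1, at 108, and wild-type sham, at 109, was small, and the difference was -0.22 without the transgenic sham array. Without that array the TAC difference is the one within wild type, which is given again below. Gata6 also had all 4 TAC arrays below both sham arrays (-0.23 ± 0.13, adjusted p = 0.636), and it moved to -0.06 without the transgenic sham array. Such a complete separation downward was seen for 8.16% of all genes. By the second Gata6 probe, also above the intensity filter, the difference was 0.01 with overlapping arrays. Gata4 (-0.23 ± 0.14, adjusted p = 0.669) and Irx4 (-0.31 ± 0.19, adjusted p = 0.664) were lower with overlapping arrays; without the transgenic sham array they stood at -0.11 and 0.07.

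Tbx20 was the 1 member with all 4 TAC arrays above both sham arrays, at 371 to 489 against 319 and 333, which 8.39% of all genes showed. The difference was 0.41 ± 0.17 (unadjusted p = 0.0410, adjusted p = 0.512), and it stayed between 0.32 and 0.49 without any 1 array but was 0.018 by the median of its probes. The second Tbx20 probe gave 0.13, and the remaining 2, close to background, gave -0.10 and -0.01, so the separation was carried by the brightest probe. Tbx5 (-0.08 ± 0.16), Mef2c (0.07 ± 0.14), Mef2d (0.08 ± 0.15) and Nkx2-5 (-0.04 ± 0.19) had differences smaller than their SE. The other Mef2c probes above the intensity filter gave -0.10 ± 0.18, 0.13 ± 0.18 and -0.32 ± 0.21.

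Markers of other cells moved with surgery too. All 10 fibroblast markers had higher values after TAC (median 0.72), and their summed intensity was 28507 and 36786 in transgenic TAC, 22024 in transgenic sham, 33259 and 24911 in wild-type TAC and 20357 in wild-type sham. Of 8 atrial markers 6 were higher (median 1.10), with a summed intensity of 22425 to 30913 in the 4 TAC arrays against 17026 and 11649 in the sham arrays. Most of each sum was Nppa, at 20530 to 22650 in the TAC arrays against 14944 in transgenic sham and 10090 in wild-type sham. Myl4, Myl7 and Sln were highest on wild-type TAC 1 (5718, 545 and 1451). On transgenic TAC 1 each of them lay between its transgenic and wild-type sham values. Of 8 endothelial markers 8 were higher (median 0.20), 1 of them with an unadjusted p under 0.05 in limma. Their summed intensity was 11987 and 17287 in transgenic TAC, 13673 in transgenic sham, 17139 and 17704.5 in wild-type TAC and 14454 in wild-type sham. The lowest sum was thus on transgenic TAC 1. The 9 cardiomyocyte markers had a median of -0.02, with sums between 117043 and 129631 on all arrays. None of these markers passed the test. Their part in the values of Hand2, Gata6 and Tbx20 was not tested, and in whole heart RNA fewer cells of a type and less RNA per cell cannot be told apart.

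**Figure D3:**
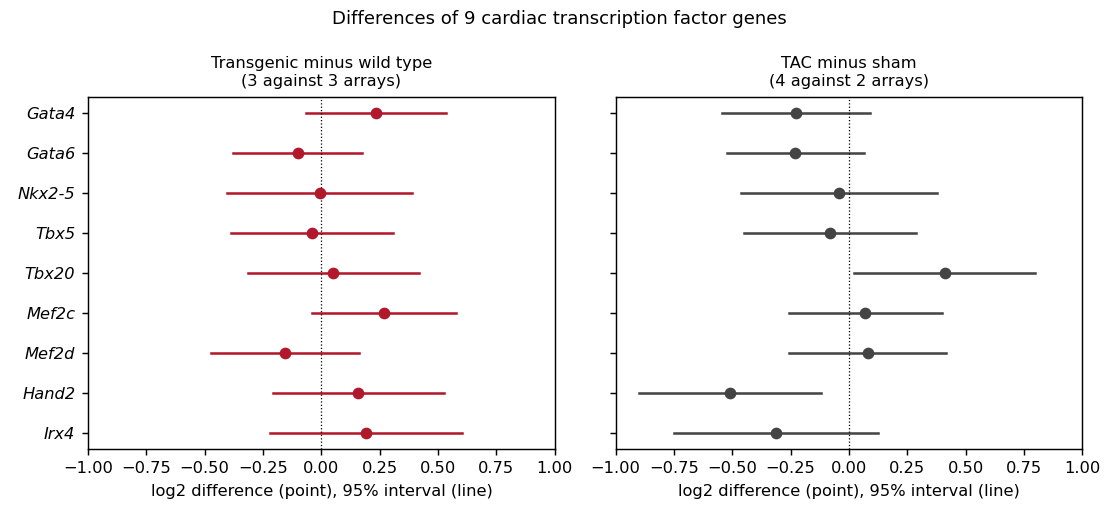
Log2 differences (horizontal axis, point) with 95% intervals (line) of 9 genes, transgenic minus wild type on the left and TAC minus sham on the right, from limma's model of both factors. All intervals on the left include 0; on the right those of Hand2 (-0.51) and Tbx20 (0.41) do not, before adjustment over all genes.

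Within a genotype 2 TAC arrays stood against 1 sham array, whose own spread is unknown and was taken to equal that of the TAC arrays. In wild type 0 of 9 members had an unadjusted p under 0.05 and none passed (limma, adjusted p = 1.00). Of all genes 398, or 3.56%, had an unadjusted p under 0.05 and 0% passed. Tbx20 had the largest difference, 0.42 ± 0.28, which turned to -0.15 by the median of its probes. It was followed by Mef2d at -0.26 ± 0.14, Nkx2-5 at 0.24 ± 0.27 and Hand2 at -0.22 ± 0.23. Gata4 (-0.11), Irx4 (0.07) and Gata6 (-0.06) were closer to 0.

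In transgenic hearts 3 members had an unadjusted p under 0.05, again with none passing (limma, adjusted p from 0.991 to 0.996). Of all genes 543, or 4.86%, had an unadjusted p under 0.05 and 0% passed. Hand2 stood at -0.80 ± 0.23 (unadjusted p = 0.00713), Irx4 at -0.70 ± 0.25 (0.0221) and Mef2d at 0.42 ± 0.14 (0.0184; 1.60 after background subtraction and 0.19 with Xist as a covariate). For these 3 genes both transgenic TAC arrays lay within or next to the range of the wild-type arrays, and the transgenic sham array was the distant point. Gata6 (-0.40 ± 0.19), Gata4 (-0.34 ± 0.23) and Nkx2-5 (-0.33 ± 0.27) were lower after TAC and Tbx20 was higher (0.40 ± 0.28), each without passing. The second Gata6 probe gave 0.085 here, with its transgenic TAC arrays on either side of the transgenic sham array.

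The difference of the TAC responses, transgenic minus wild type, asks whether the transgene altered the effect of overload on these genes. No member passed (limma, adjusted p = 1.00 for each), and 1 had an unadjusted p under 0.05. Of all genes 183, or 1.64%, had one and 0% passed. Mef2d, whose probe was near background, gave 0.68 ± 0.20 (unadjusted p = 0.00965), or 2.27 after background subtraction and 0.34 with Xist as a covariate. Irx4 gave -0.77 ± 0.35 (0.0589), Hand2 -0.58 ± 0.32 (0.105) and Nkx2-5 -0.56 ± 0.38 (0.170). The difference was negative for 8 of 9 members, with a median of -0.22, while 52.3% of all genes were positive (median 0.01). This count rests on the brightest probe of each gene. The second Gata6 probe gave 0.15 and the second Tbx20 probe 0.43. Of the untested Mef2c probes above the intensity filter, 1 gave -0.45 and the others 0.32 and 0.35. However, every one of the 9 member values contains the same 2 sham arrays. Nkx2-5, Mef2d and Irx4 had their transgenic TAC arrays on one side of the transgenic sham array and their wild-type TAC arrays on the other side of the wild-type sham array, which 14% of all genes did.

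**Figure D4:**
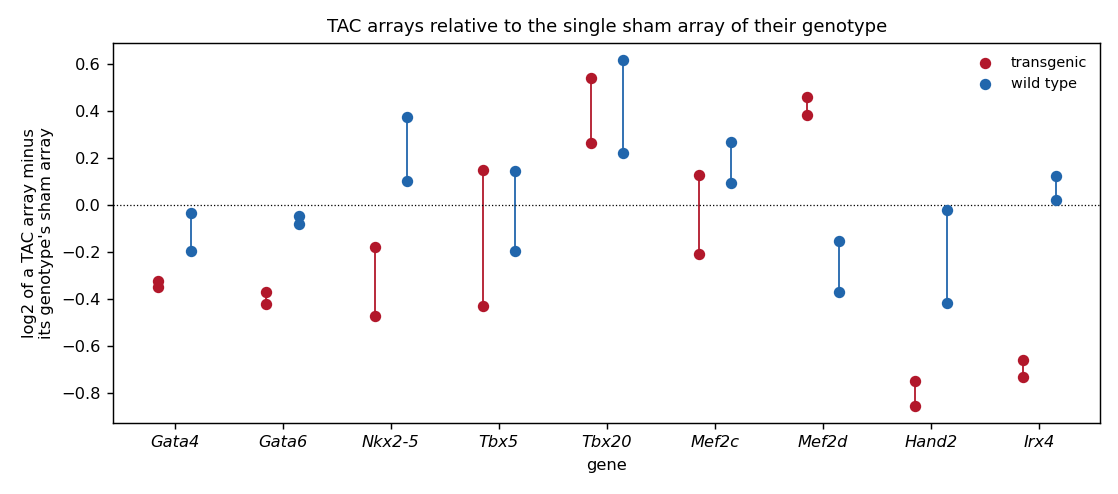
Log2 intensity of each TAC array minus the single sham array of its genotype (vertical axis) for 9 genes, transgenic in red and wild type in blue, with the 2 arrays of a group joined. For Nkx2-5, Irx4 and Mef2d the genotypes lie on opposite sides of 0, and both Tbx20 groups lie above it.

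The sham hearts were compared by size only, with 1 array on each side and no replicate check. Irx4 was higher in transgenic sham than in wild-type sham by 0.70, Hand2 was higher by 0.55 and Mef2d was lower, at -0.61. These 3 of 9 members exceeded 0.5 in size, against 10.4% of all genes. Mef2c (0.42), Gata4 (0.38), Nkx2-5 (0.37) and Gata6 (0.12) were higher in the transgenic sham array by less.

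The transgenic sham array was the highest or the lowest of all 6 for 5 of 9 members, compared with 34.7% of all genes. It was the highest for Gata4, Gata6, Hand2 and Irx4, and its distance above the next array was 0.32, 0.12, 0.55 and 0.58 on the log2 scale for these genes in that order. For Mef2d it was the lowest, 0.24 under the next array. Transgenic TAC 2 was also an extreme for 5 members (Mef2c, Gata6, Nkx2-5, Tbx5 and Irx4) and for 42.6% of all genes. The transgenic sham array was 1 of the 2 arrays with low Xist; the other was wild-type TAC 2. These 2 arrays were the 2 highest for Irx4 (495 and 331) and the 2 lowest for Mef2d (48.4 and 57.1), while for Hand2 they were the highest and the lowest (159.7 and 81.9), and for Gata4 they were at 179 and 134. What part sex, the animal or the transgene has in the sham values cannot be told apart.

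The tested genes whose values over the 6 arrays lay nearest to those of the 3 most variable members were found by the root mean square distance between log2 values centred on each gene's mean. For Hand2, with a range of 0.96, these were Eepd1 (distance 0.125) and Hspa4l (0.138). For Irx4, with a range of 0.73, they were Cdx1 (0.0660) and Rab10 (0.0719). Rab10 was at 138 and 141 in transgenic TAC, 225 in transgenic sham, 124 and 147 in wild-type TAC and 139 in wild-type sham, a single high array as for Irx4. For Tbx20, with a range of 0.62, they were Efs (0.0274) and C030013C21Rik (0.0418). Efs was at 277 and 348 in transgenic TAC, 231 in transgenic sham, 339.9 and 249.97 in wild-type TAC and 223 in wild-type sham, in the order of Tbx20 except that transgenic TAC 2 and wild-type TAC 1 change places.

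Other developmental heart factors were read beside the members. Of 16 tested, 1 rose with the transgene: Tbx1, the T-box gene of the second heart field, was at 111 and 125 in transgenic TAC, 157 in transgenic sham, 75.5 and 70.2 in wild-type TAC and 98.5 in wild-type sham. All 3 transgenic arrays were above all 3 wild-type arrays (0.69 ± 0.12, limma's adjusted p = 0.0324), but without wild-type sham, wild-type TAC 1, wild-type TAC 2 or transgenic sham the adjusted p was 0.261, 0.160, 0.236 and 0.207. Prox1, a homeobox gene of heart and lymphatic development, was higher by 0.75 ± 0.16 without passing (adjusted p = 0.0767), and Irx2 stood at -0.51 ± 0.27 (adjusted p = 0.532). The list had a median of 0.01, with 9 higher and 7 lower. With TAC none of the 16 passed, 3 had an unadjusted p under 0.05 and 11 were lower (median -0.14), among them Tbx1 (-0.42 ± 0.12) and Prox1 (-0.40 ± 0.17), whereas Foxc1 was higher (0.46 ± 0.15).

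Of 26 tested partners and cofactors, 1 fell with the transgene and none rose. Hopx, a homeodomain-only protein that restrains SRF and acts downstream of NKX2-5, was at 1787 and 1415 in transgenic TAC, 1899 in transgenic sham, 4281 and 5370.15 in wild-type TAC and 7457 in wild-type sham. It fell by 1.72 ± 0.15 (adjusted p = 0.00134) and, after TAC, fell by 1.59 ± 0.19 (adjusted p = 0.0200). By the median over its probes the values were -0.79 (adjusted p = 0.0767) and -0.66 (0.642), and after TAC the adjusted p was 0.229 and 0.550 without wild-type TAC 1 and 2, 0.110 when limma used no intensity trend, and 0.0693 when Xist entered as a covariate. Myocd, the SRF coactivator myocardin, had a difference of -0.73 ± 0.16 (adjusted p = 0.0989) and Camta2, an activator that binds NKX2-5, -0.51 ± 0.12 (adjusted p = 0.120). The list had 17 lower and 9 higher genes and a median of -0.09. With TAC none of the 26 passed and 4 had an unadjusted p under 0.05; the GATA4 repressor Zfpm2 stood at -0.46 ± 0.15, Ankrd1 at 0.29 ± 0.10 and Nfatc4, the calcineurin-regulated partner of GATA4, at 0.57 ± 0.19.

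The kinases and phosphatases that act on MEF2 and GATA4 gave 0 passes of 13 between genotypes, with a median of -0.01. In limma 2 had an unadjusted p under 0.05, against 11.5% of all genes. Camk2b, a calcium-dependent kinase that relieves repression of MEF2, was higher in transgenic arrays by 0.69 ± 0.16 (adjusted p = 0.102), and the calcineurin inhibitor and target Rcan1 by 0.53 ± 0.22 (adjusted p = 0.403). Camk2a had a difference of -0.33 ± 0.17, or 0.00050 when the median of its probes was taken. With TAC 0 of 13 passed and 1, Rcan1, had an unadjusted p under 0.05: it was at 6708 and 8802 in transgenic TAC, 2515 in transgenic sham, 5784 and 3472 in wild-type TAC and 2459.9 in wild-type sham. All 4 TAC arrays were above both sham arrays (1.24 ± 0.23, adjusted p = 0.226). Camk2a was at -0.39 ± 0.19 and Prkd2 at 0.29 ± 0.21.

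Among 25 tested textbook targets of the factors, 1 fell with the transgene. Kcnd2, a transient outward potassium channel gene, was at 139.97 and 104 in transgenic TAC, 219 in transgenic sham, 291 and 279 in wild-type TAC and 409 in wild-type sham. It fell by 1.13 ± 0.17 (adjusted p = 0.0165), with an adjusted p of 0.107 without wild-type sham, 0.132 and 0.129 without wild-type TAC 1 and 2, and 0.110 without transgenic sham. Acta1, the fetal skeletal actin, had a genotype difference of -0.41 ± 0.08 (adjusted p = 0.0554) and the potassium channel gene Kcnh2 of -0.57 ± 0.15 (adjusted p = 0.160). The list had 13 higher and 12 lower genes and a median of 0.02.

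With TAC 1 of these 25 targets rose. Acta1 was at 15874 and 15944 in transgenic TAC, 7385 in transgenic sham, 21380.2 and 20655 in wild-type TAC and 9949.6 in wild-type sham, a rise of 1.09 ± 0.08 (adjusted p = 0.00403). Leaving out wild-type sham gave an adjusted p of 0.238, leaving out transgenic sham 0.118, and leaving out wild-type TAC 1 or 2 gave 0.0797 and 0.0869. Both genes for the natriuretic hormones of the overloaded heart had all 4 TAC arrays above both sham arrays, Nppb by 0.72 ± 0.09 (adjusted p = 0.101) and Nppa by 0.82 ± 0.13 (adjusted p = 0.226). The list had 13 higher and 12 lower genes, a median of 0.01 and 13 genes with an unadjusted p under 0.05 in limma, against 9.26% of all genes. It was chosen with earlier results of these data known and includes Acta1, Nppa and Nppb. The larger share is therefore not an independent result. Beside the genotype values, 5 of 6 smooth muscle markers were lower in transgenic arrays (median -0.47), among them Acta2 (-1.67 ± 0.23, adjusted p = 0.0118, but -1.43 with an adjusted p of 0.201 by the median of its probes). In the same arrays 7 of 8 endothelial markers were lower (median -0.27, 1 with an unadjusted p under 0.05 in limma). Of 10 fibroblast markers 9 were higher (median 0.17, 2 under 0.05), and 8 of 8 macrophage markers were higher (median 0.24, 0 under 0.05). Such a p was reached by 3 of the 6 smooth muscle markers and by 11.5% of all genes. Summed macrophage intensity was 6204 and 5031 in transgenic TAC, 5047 in transgenic sham, 4876 and 5002 in wild-type TAC and 3459 in wild-type sham. The part of these markers in the values of Tbx1, Hopx and Kcnd2 was not tested.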

How the data were processed

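The labels' protocols state Trizol extraction, DNase I treatment and biotinylated cRNA made with a TotalPrep kit for Illumina arrays. The authors deposited 1 linear intensity per probe and array; which software, background step and between-array normalization they used the sources used here do not say. Sorted columns differed by at most 0.0064 on the log2 scale from their mean. The deposited scale was kept, 12 values under 32 were set to 32, and log2 was taken. Of 45281 probes, 34885 had 1 gene symbol, 18 several and 10378 none in the platform annotation; gene identifiers checked against RefSeq's GRCm38.p6 table changed 0 symbols. A gene was represented by its brightest probe and tested above the 50th percentile of named probes. limma 3.58.1 (R 4.3.3; lmFit, eBayes with an intensity trend) gave Benjamini-Hochberg adjusted p over 11167 genes, threshold 0.05, from a model of genotype plus surgery (3 residual, 6.14 prior degrees of freedom) and from a fit of the 4 groups (2 and 6.25). The number of arrays limits the precision. Steps were tested on simulated data. All members were named; of other lists, genes past a test, otherwise the 3 with the smallest p; and the 2 nearest genes of the 3 most variable members. Acta2 was named after its values were seen. The members and lists were chosen with earlier results of these data known. Alternatives changed the probe summary, filter, trend, background, floor, arrays left out, Xist as a covariate and a replicate block.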

Additional observations from a re-analysis of the deposited data

Results flagged for a closer look

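For 3 genes both transgenic TAC arrays lay on one side of the transgenic sham array and both wild-type TAC arrays on the other side of the wild-type sham array. Nkx2-5 was lower after TAC in transgenic and higher in wild-type arrays (transgenic minus wild-type response -0.56 ± 0.38), Irx4 likewise (-0.77 ± 0.35), and Mef2d was higher in transgenic and lower in wild-type arrays (0.68 ± 0.20). The Mef2d value was 2.27 after background subtraction and 0.34 with Xist as a covariate, and its probe lay near background (48.4 in transgenic sham). The difference itself was tested with limma's interaction contrast and passed for none of the 3 (adjusted p = 1.00), with each value resting on 1 sham array per genotype.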

How the results depend on the processing

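The count of members past the test was 0 in all 6 comparisons and in each of the 13 to 15 alternatives run for them; the lowest adjusted p was 0.0986, for Hand2 with TAC in transgenic arrays without transgenic TAC 1. The stricter intensity filter left 5 members. Counts over all genes were less stable. Between genotypes the main count of 106 ranged from 24 without wild-type sham to 473 without transgenic TAC 2, after TAC the count of 23 from 0 to 189, for TAC the count of 1 from 0 to 37, within wild type 0 to 11, within transgenic 0 to 239, and for the difference of responses 0 to 5. The 3 sham differences over 0.5 became 4 after background subtraction, with Gata4 at 0.51, and were 3 under the other 2 alternatives.

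Signs of small member differences changed when 1 array was left out. None had passed, and the cause was not tested. Leaving out 1 sham array gave the genotype difference after TAC alone, or the TAC difference within the other genotype, so these values repeat those comparisons. Between genotypes Nkx2-5 ranged from -0.20 to 0.13, Tbx5 from -0.19 to 0.13, Tbx20 from -0.061 to 0.17, Mef2d from -0.28 to 0.073, Hand2 from -0.035 to 0.33 and Irx4 from -0.066 to 0.29. With TAC Nkx2-5 ranged from -0.33 to 0.24, Tbx5 from -0.20 to 0.049, Mef2c from -0.041 to 0.18, Mef2d from -0.26 to 0.42 and Irx4 from -0.70 to 0.071. When all probes of a gene were summarised by their median, Mef2c with TAC was -0.054, Tbx20 with TAC in wild type -0.15 and Camk2a between genotypes 0.00050. With Xist as a covariate Mef2d with TAC was -0.015 and Tbx20 with TAC in transgenic arrays -0.039. Background subtraction moved the sham difference of Mef2d to -2.05, and the median over probes moved that of Gata6 to -0.16 and that of Mef2c to 0.089. Among the other named genes, Prox1, Myocd, Camta2 and Acta1 passed between genotypes without transgenic TAC 2 (adjusted p = 0.0254, 0.0201, 0.0245 and 0.0302), and Nppb and Nppa passed with TAC without transgenic TAC 1 (0.0209 and 0.0231). With no filter, the stricter filter or every probe fitted on its own, Nppb passed with TAC (0.0152, 0.0345 and 0.0124) and Acta1 between genotypes (0.0359, 0.0451 and 0.0348). With Xist as a covariate Tbx1 (0.0857) and Kcnd2 (0.0568) between genotypes and Acta1 with TAC (0.0758) no longer passed, nor did Hopx after TAC (0.0693). Without the intensity trend Acta1 with TAC (0.121) and Hopx after TAC (0.110) did not pass.

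The TAC arrays carry numbers 1 and 2 in both genotypes. The differences between arrays 1 and 2 correlated at r = -0.03 across genes, so the numbers are not shown to pair the samples. With the replicate block no member passed, Nkx2-5 with TAC was 0.10 and Tbx5 0.15, Myocd passed between genotypes (-0.73, adjusted p = 0.0378), and calls over all genes were 111 between genotypes, 51 after TAC, 2 with TAC, 4 within wild type and 0 in the remaining comparisons.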
